A study of Homo sapiens with 12 samples.

Results

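The comparison set the uninduced cells of a pair of derivatives of Ls174T against each other. Ls174T is an established line of human colorectal carcinoma. The derivative Ls174T-L8 carries a doxycycline-inducible dominant-negative Tcf4, and the derivative Ls174T-pTER-β-catenin, called the shRNA line here, carries a doxycycline-inducible shRNA against β-catenin. The 6 arrays titled as controls were compared, 3 of each line, out of 12 in the series. The other 6 came from the same lines given doxycycline. They also entered the model's estimate of spread, the low-signal filter and the choice of probe sets. The 6 control cultures received no doxycycline. The labels give a time of 24 h for Ls174T-L8 and 72 h for the shRNA line also on the uninduced arrays, so time in culture and line cannot be told apart. The medium for both was RPMI, supplemented with fetal calf serum, and the parent of both is Ls174T. The labels do not say whether a line is 1 clone, nor whether the 3 arrays came from separate cultures, so a p-value here measures the spread between arrays, which may be technical.

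In the colon, Wnt ligands made around the crypt base keep β-catenin from being degraded, and β-catenin then acts with TCF/LEF factors on genes of proliferation and of the stem cell state. In most colorectal carcinomas a mutation in this pathway leaves β-catenin signalling on without a ligand. Ls174T is known for making mucus like a goblet cell, the secretory cell of the colon. Inducible derivatives of such a line are each read against their own uninduced cells, and the uninduced cells of both are the baseline from which those readings start.

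Affymetrix U133 Plus 2.0 arrays gave 1 signal per probe set in arbitrary units. The 6 arrays had median signals of 12.1 to 14.5, and between 6.58% and 9.26% of their values lay under 1. Arrays of the same line correlated at 0.958 to 0.968 over 27280 probe sets and arrays of different lines at 0.908 to 0.917, as a description with no test. The lines lay apart on the first principal component (56.3% of the variance), and replicate 3 of the shRNA line lay apart from its other 2 arrays on the second (13.1%). The ratio of 3′ to 5′ signal lay between 0.989 and 1.045 for GAPDH and between 1.25 and 1.39 for ACTB. The highest signal on an array was 13442 to 14880 in the shRNA line and 11014 to 12031 in Ls174T-L8. Among the 620 brightest genes the median difference was -0.14, with 13.7% called higher and 41.8% lower, and after quantile normalization that median was 0.0007. The array number, 3 per line, limits the precision of every value.

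Differences are given throughout as log2 signal of Ls174T-L8 minus the shRNA line (3 arrays per line), and levels as geometric means of 3 arrays. The standard error is that of the model, with the spread estimated over all 12 arrays. A gene is called where limma's adjusted p (Benjamini-Hochberg over all genes, two-sided) was under 0.05. Of 12386 genes tested, 4625 were called (37.3%). Of these, 2089 were higher (16.9%) and 2536 lower (20.5%) in Ls174T-L8. The difference was at least 2-fold for 475 higher and 814 lower genes, at least 4-fold for 160 and 269, and at least 16-fold for 24 and 47. The 3 values of one line did not overlap those of the other for 4484 of the called genes, and for 6185 of all genes tested (49.9%). The median difference over all genes was -0.03. With each array centred on its median signal, that median was 0.09, and 2426 genes were higher and 1668 lower, so that 59.3% of called genes were higher against 45.2% without centring. A test for differences beyond 2-fold left 168 higher and 270 lower genes.

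**Figure D1:**
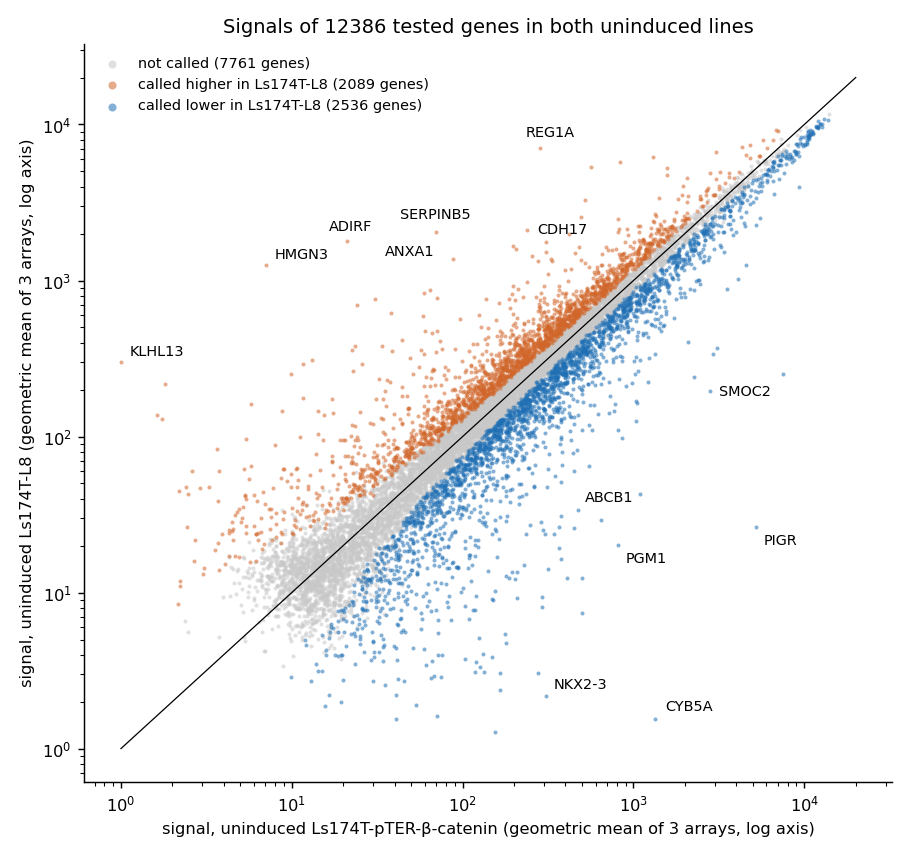
Geometric mean signal of each gene in the shRNA line (horizontal, log axis) against Ls174T-L8 (vertical, log axis), 3 arrays each, with called genes coloured by direction and the leading genes named. The 2089 higher and 2536 lower genes spread over the whole range of signals, and CYB5A and KLHL13 lie farthest from the diagonal.

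The genes that the constructs act on were read first. CTNNB1, which encodes β-catenin, had 3 probe sets and none was called. The brightest gave 3816, 3961 and 3575 in the shRNA line and 3342, 3012 and 3290 in Ls174T-L8. All 3 values of the shRNA line lay above those of Ls174T-L8, and the difference of -0.24 ± 0.11 did not pass in the fit over all probe sets (adjusted p = 0.184). It did not pass in limma's main fit over genes either. That gene fit called it lower with only the uninduced arrays (adjusted p = 0.0146) and with array weights (-0.26, adjusted p = 0.0244). The fit over all probe sets did not call it with only the uninduced arrays (adjusted p = 0.0806). TCF7L2, which encodes Tcf4, had 7 probe sets, 6 of them above the low-signal filter, and 1 of the 7 was called. That probe set gave 247, 260.4 and 219 in the shRNA line and 415, 384 and 425 in Ls174T-L8, without overlap. The difference was 0.76 ± 0.14 or 1.69-fold (adjusted p = 0.0013). Being under 2-fold, it could not pass the test for more than 2-fold. The same probe set read 3077 in induced Ls174T-L8. A second probe set with a large rise in induced Ls174T-L8, to 1221, gave 77.3 in the shRNA line and 106 in uninduced Ls174T-L8. It did not pass (0.45 ± 0.23, adjusted p = 0.256). The brightest TCF7L2 probe set gave 724 and 692, and 1208 and 1139 on the induced arrays. All 6 probe sets above the filter read higher on the induced arrays of both lines. The remaining 4 were not called.

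The label of intestinal carcinoma was checked against marker genes. All 12 epithelial and intestinal markers on the array lay above the filter in both lines. EPCAM, the epithelial adhesion molecule, had geometric means of 4479 and 4634, and the intestinal factors CDX1 and CDX2 had 1046 and 804, and 341 and 263. The summed signal of the 12 markers was 16977.5 to 19759.5 in the shRNA line and 25217.1 to 28314.7 in Ls174T-L8. Single markers were called in both directions, so the sum does not stand for all of them. KRT8 (1572 and 5243), KRT18 (7013 and 9140), KRT19, KRT20 and CDH17 were higher in Ls174T-L8. VIL1 (789 and 323), LGALS4 (1821 and 1082), CEACAM5 and CDX1 were lower, and EPCAM, CDH1 and CDX2 did not pass. The KRT19 and CEACAM5 calls were lost with the mean of their probe sets. Of 6 fibroblast markers 3 lay above the filter (summed signal 84.1 to 110.6 and 94.3 to 117.2), of 3 leukocyte markers none (14.1 to 20.4 and 5.9 to 9.7), and of 3 endothelial markers 1 (28.6 to 54.2 and 17.8 to 33.5). The fibroblast marker LUM was called higher in Ls174T-L8 (4.52 and 21.8), a call lost with the mean of its probe sets. COL1A1 (52.9 and 52.2), DCN and the endothelial PECAM1 did not pass. As the arrays measure bulk RNA, fewer cells of a kind and less RNA per cell cannot be told apart in any value given here.

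Many of the largest differences were of genes near the floor of the array in one line and bright in the other. The 15 largest in each direction among called genes without overlap were taken. KLHL13, an adaptor that brings substrates to a cullin ubiquitin ligase, was at or under 1 on all 3 arrays of the shRNA line and gave 296, 304 and 307 in Ls174T-L8. Against the floor of 1 the difference was 8.24 ± 0.46, and with an offset of 3.5 added to each signal it was 70.7-fold. HMGN3, a nucleosome-binding protein, gave 1.5, 9.3 and 25.2 in the shRNA line and 1119.5, 1555 and 1155 in Ls174T-L8 (7.48 ± 0.63, adjusted p = 1.09e-07). ADIRF, named for a role in fat cell formation, gave 18.3, 22.7 and 22.2 against 1806, 1878 and 1666, a difference of 6.41 ± 0.14 or 84.9-fold (adjusted p = 9.65e-15). With the same offset HMGN3 was 103-fold and ADIRF 72.9-fold higher, so the order of these 3 genes depends on the floor. In all of these Ls174T-L8 was high on each array and the shRNA line at no more than 25.2.

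REG1A, a secreted lectin of the gut lining, had a clear signal in both lines. It was 322, 250.2 and 281 in the shRNA line and 6842, 7185 and 7115 in Ls174T-L8, 24.9-fold higher (adjusted p = 1.18e-14). SERPINB5, the epithelial serpin maspin, was 29.6-fold higher, with 77, 66.4 and 65.8 against 2295, 1833 and 2075. TM4SF1, a surface protein with 4 membrane passes, gave 24.1 and 699.9, and its 2 other probe sets above the filter were also called higher. The aldo-keto reductase AKR1B10, one of a family of near-identical genes, gave 30.5 and 765. The alarmin cytokine IL33 gave 5.8 and 161, and carbonic anhydrase CA2, an absorptive cell enzyme, 1.73 and 129. CYP1A1, the cytochrome induced through the aryl hydrocarbon receptor, gave 11.6 and 292. The remaining 5 of the 15 were CADPS, which primes secretory vesicles, the stress-response gene NIBAN1, EMP1, PLAC8 and the matrix protein NPNT, with differences between 4.52 and 6.92.

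CYB5A, the electron carrier cytochrome b5, had the largest difference in either direction. It gave 1327, 1364 and 1304 in the shRNA line and 1.8, 2.1 and 1 in Ls174T-L8, a difference of -9.74 ± 0.33 (adjusted p = 1.80e-12), which is 855-fold or, with the offset of 3.5, 261-fold lower. PIGR, the receptor that carries IgA across the epithelium, was bright in the shRNA line, with 5515, 5389.7 and 4797, and gave 31.4, 23.1 and 25.2 in Ls174T-L8 (-7.63 ± 0.14, adjusted p = 1.01e-15). Homeobox factor NKX2-3, which patterns gut and spleen, gave 307 and 2.16, and the homeobox gene DLX1 119 and 3.1. PGM1, which interconverts glucose phosphates on the way to and from glycogen, gave 878, 821 and 746 against 15.5, 19.7 and 26.6, 40.5-fold lower. SLC3A1, part of the cystine transporter of kidney and gut, gave 498 and 12.4. The gel-forming mucin MUC5B gave 71.1 and 1.63, and the intermediate filament nestin, NES, 277 and 3.03. The rest of the 15 were ZNF32, LINC02241, LITAF, SIPA1L2, the membrane skeleton gene EPB41L3, GAGE1 of a family of near-identical cancer-testis genes, and the hexokinase-like HKDC1, between -5.23 and -6.92. None of the 30 genes lost its call in any alternative that gave it a value, the test for more than 2-fold included.

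**Figure D2:**
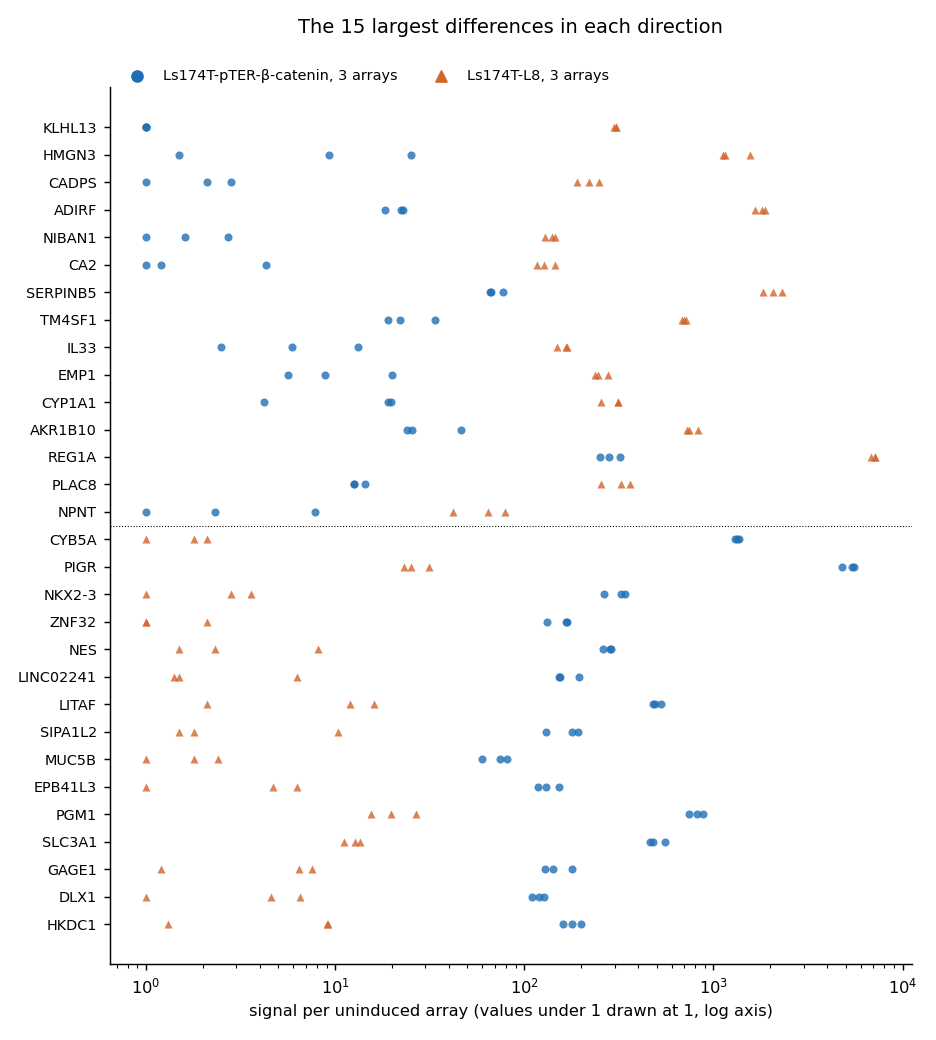
Signal on each of the 6 uninduced arrays (log axis, values under 1 drawn at 1) for the 30 genes with the largest differences, 15 in each direction; each point is 1 array and the colour marks the line. KLHL13 lies at 1 on every shRNA line array and near 300 in Ls174T-L8, and CYB5A runs from above 1300 in the shRNA line to about 1 or 2.

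Gene lists for lineage, metabolism and signalling were read by counts of called members and the median difference of the members tested, beside the shares over all genes (16.9% higher, 20.5% lower, median -0.03). Of 1542 list entries 1071 could be tested. Members named are those with the largest differences by the rule in the processing notes, and a named call that was lost under an alternative besides the 2-fold test is marked where it is given. Counts that moved by over 1.5 times with 1 array left out are given beside each list, as are the larger moves under other settings. A stricter filter, or leaving out probe sets ending in _x_at or _s_at, which may read several transcripts, also removes members. The medians of 22 of the 52 lists changed sign under some alternative, and no direction is read from them. Among these are the Wnt target, Wnt component, ERBB, interferon, cytokine, antigen presentation, surface, cadherin, tight junction, protease, apoptosis, glycolysis, gluconeogenesis, metal and reference lists.

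**Figure D3:**
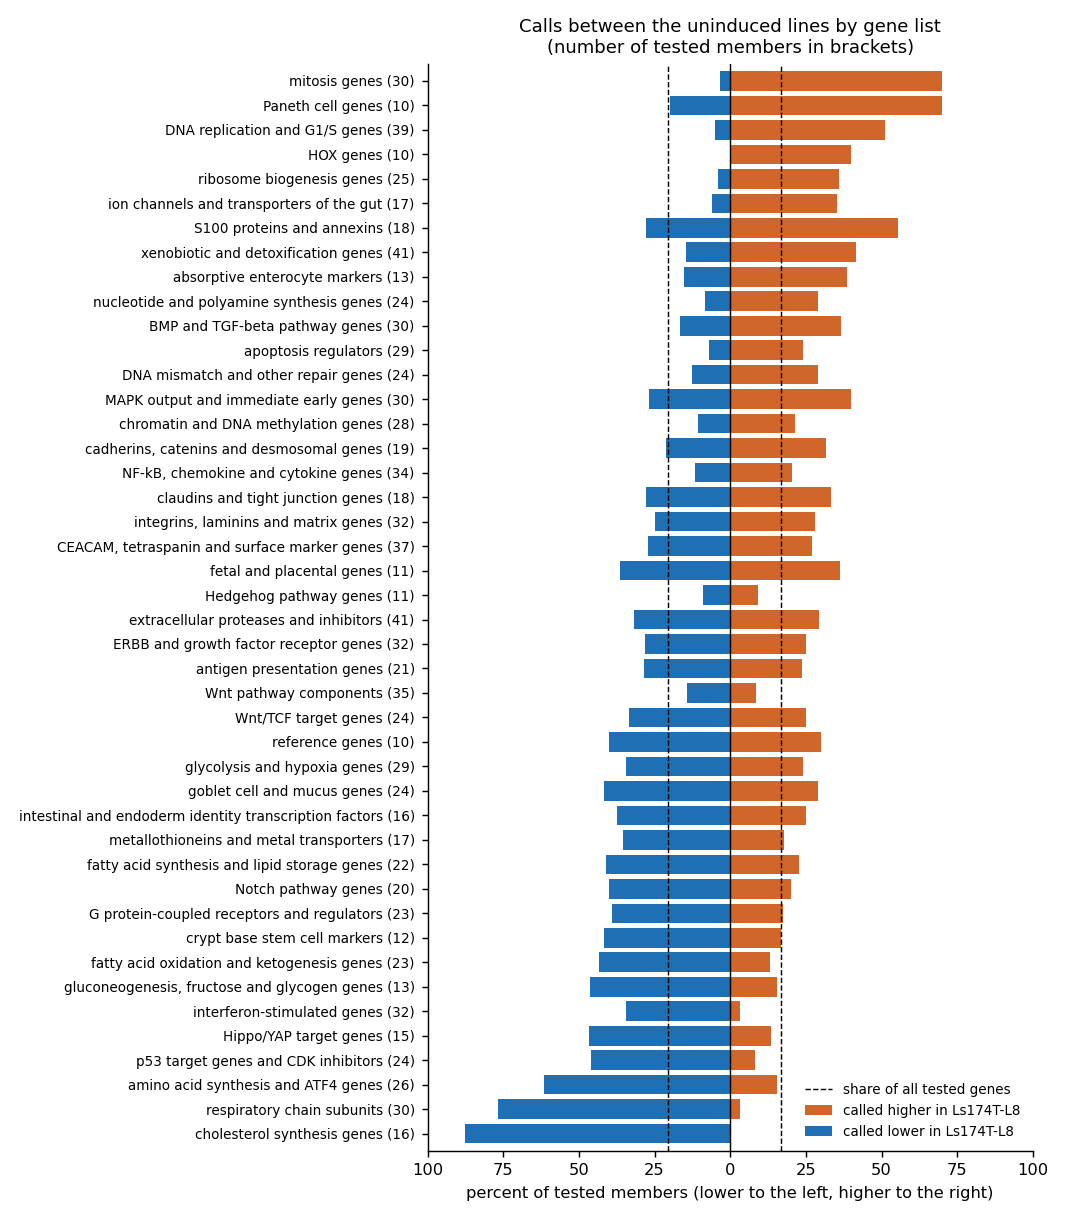
Share of tested members called higher (right) and lower (left) in Ls174T-L8 for each gene list with at least 10 tested members, in percent, with dashed lines at the shares over all genes tested (16.9% higher and 20.5% lower). The cholesterol and respiratory chain lists lie almost wholly to the lower side, and the mitosis and Paneth lists mostly to the higher side.

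Markers of the crypt base stem cell were split. Of 12 tested, 2 were higher and 5 lower (median -0.29), and 3 were lower when each array was centred. SMOC2, a crypt base protein of the extracellular matrix, gave 2887, 3078 and 2451 in the shRNA line and 149, 239 and 211 in Ls174T-L8, 14.3-fold lower (adjusted p = 2.19e-09) with no overlap. RGMB, a BMP co-receptor, was 2.82-fold lower, 1219.7 against 433. CD44, the hyaluronan receptor, was the opposite case, with 1344, 1297 and 1368 against 2816, 2532 and 2630.1, 1.99-fold higher, and 7 of its 8 other probe sets above the filter were called the same way. LGR5, the R-spondin receptor that marks these cells, gave 787 and 768 and did not pass (-0.04 ± 0.12, adjusted p = 0.841), and neither did SOX9 (2659 and 2580.0, -0.04 ± 0.12). ASCL2, the stem cell factor, gave 1806 and 1250.5 (-0.53 ± 0.17, adjusted p = 0.0218), and its call was lost when arrays were centred, with the mean of its probe sets, without a variance trend, and without replicate 1 or 2 of the shRNA line or replicate 1 of Ls174T-L8.

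Goblet cell genes differed in both directions and by large amounts. Of 24 tested, 7 were higher and 10 lower, with a median of 0.15. Mucin MUC2, the main gel of colonic mucus, gave 38.6, 80.8 and 67.3 in the shRNA line and 434, 254 and 354 in Ls174T-L8, 5.71-fold higher (adjusted p = 2.72e-07). The trefoil peptide TFF1, a mucosal repair factor, gave 51.7, 67.6 and 59 against 889, 866 and 738, 14-fold higher, and the disulfide isomerase AGR3 71.1 against 768. TFF2, another trefoil peptide, was 7.04-fold higher, or 4.50-fold with the offset. On the lower side, MUC5B gave 59.7, 80.6 and 74.7 in the shRNA line and 1.8, 1 and 2.4 in Ls174T-L8. FCGBP, which crosslinks mucus, was 16.4-fold lower (149 and 9.09), or 11.3-fold with the offset. The lectin ZG16 was 11.1-fold lower (41.3 and 3.71), or 5.28-fold with the offset. Mucin MUC5AC was lower too (-3.29), but not by the probe sets left when those ending in _x_at and _s_at were dropped (-0.34). Neither line was higher for all mucins. The 10 lower genes were 4 under the stricter filter and 5 without _x_at and _s_at probe sets. Membrane mucin MUC13 gave 277 and 311 and did not pass (0.17 ± 0.11).

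Absorptive markers were 5 higher and 2 lower of 13 (median 0.13). Besides CA2, the guanylate cyclase ligand GUCA2A was higher (2.72 and 21.8, 8.03-fold, or 3.60-fold with the offset). The keratin of mature colonocytes, KRT20, gave 34.4, 20.5 and 20.8 against 123, 67.8 and 103, 3.88-fold higher. On the other side stood SLC5A1, the sodium-glucose transporter, at 229, 269 and 213 in the shRNA line and 43.3, 44 and 41.8 in Ls174T-L8, 5.49-fold lower (adjusted p = 2.73e-06), and the brush border protein VIL1 at 789 and 323. CA1, another carbonic anhydrase, gave 14 and 15.4 and did not pass (0.13 ± 0.34). The 5 higher genes were 3 under the stricter filter.

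Paneth cell genes were 7 higher and 2 lower of 10, with a median of 2.31. The REG lectins made up the largest part of that. REG3A, an antibacterial lectin, gave 17.3, 20.5 and 36.3 against 291, 499.7 and 386, and REG1B 22.7 against 265. These genes are near-identical to REG1A in parts, and the probe sets may not tell them apart. Trypsinogen PRSS2 gave 66 and 461, 6.99-fold higher. The stress protein NUPR1, kept in this list though not specific to Paneth cells, gave 3060.5, 3389 and 2824 against 307, 445 and 376, 8.29-fold lower, and the phospholipase PLA2G2A was 1.99-fold lower. The defensin DEFA6, a defining Paneth product, was low in both lines, 30 and 37.4, and did not pass (0.32 ± 0.48). The count of 7 was 3 under the stricter filter and 4 without _x_at and _s_at probe sets, where none was lower.

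Keratins were 6 higher and 1 lower of 8 (median 1.29). KRT8, the partner of KRT18 in simple epithelia, gave 1562, 1754 and 1417 in the shRNA line and 6066, 4867 and 4882 in Ls174T-L8, 3.34-fold higher (adjusted p = 3.31e-09). KRT19 gave 815 and 2479.5, though the mean of its probe sets did not pass. KRT80 was 2.14-fold higher, 13.4 and 28.7. The 6 higher keratins were 3 without _x_at and _s_at probe sets, and the 1 lower became 0 without replicate 1 of Ls174T-L8 or any single array of the shRNA line. Genes of the HOX clusters, which hold positional identity, were 4 higher and 0 lower of 10 tested (median 0.49). All 4 were HOXB genes. HOXB7 gave 206, 163 and 199 against 694, 672 and 629.9, 3.53-fold higher, with its 2 other probe sets above the filter called the same way, and HOXB8 gave 10.8 and 33.4. The count of 4 higher was 2, with 1 lower, with the mean of a gene's probe sets, 1 under the stricter filter and 0 without _x_at and _s_at probe sets. HOXB13, the factor of the distal colon, gave 66.7 and 55.3 and did not pass, but was the 1 lower with the mean of its probe sets (-0.92).

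Transcription factors of intestinal and endodermal identity were 4 higher and 6 lower of 16, with a median of -0.14. KLF5, a factor of dividing crypt cells, gave 627, 618 and 594 against 1087, 1285 and 1306, 1.99-fold higher. KLF4, a factor of differentiated and goblet cells, went the other way, with 1384, 1287 and 1494 in the shRNA line and 670.5, 581 and 458 in Ls174T-L8, 2.46-fold lower (adjusted p = 1.67e-07). FOXA3 was 1.58-fold lower, and FOXA2 2.32-fold lower by its brightest probe set but not by the mean of its probe sets. The epithelial ETS factor EHF gave 1242 and 1326 and did not pass. The 4 higher factors were 2 with the mean of probe sets. Of enteroendocrine genes 2 could be tested, and the endocrine progenitor factor NEUROG3 was lower (36 and 8.6, -2.06 ± 0.40). Of 4 tuft cell genes 2 were lower, ALOX5 (-1.96 ± 0.33) and PLCG2 (-1.43 ± 0.26), a count that was 0 with the mean of probe sets.

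Wnt signalling genes were read in the order of the pathway. Of 35 ligands, receptors and intracellular components tested, 3 were higher and 5 lower (median -0.07), beside 37.3% called over all genes. The corepressor TLE2, which sits on TCF factors when β-catenin is absent, had the largest difference of the list, 376, 372 and 283 against 23.6, 21.9 and 26, 14.3-fold lower (adjusted p = 1.54e-09). Among the Frizzled receptors, FZD6 was 1.61-fold higher (178, 196 and 262 against 348, 312 and 352) and FZD2 1.91-fold lower (264 and 138). BCL9L, a coactivator of β-catenin, was 1.79-fold lower. The plakoglobin gene JUP gave 1237 and 1082 and did not pass. The 3 higher calls fell to 1 without replicate 1 or 3 of Ls174T-L8 or replicate 2 of the shRNA line, and with array weights 5 were higher and 9 lower.

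Wnt target genes were called in both directions. Of 24, 6 were higher and 8 lower, with a median of -0.08. The feedback inhibitor AXIN2 gave 706, 667 and 825 in the shRNA line and 543, 523 and 429.5 in Ls174T-L8, 1.47-fold lower (adjusted p = 0.00741). EPHB3, the receptor that holds Paneth cells at the crypt base, gave 1656, 1512 and 1384 against 523, 509 and 517, 2.93-fold lower, and SOX4 was 1.65-fold lower (1801 and 1090.3). DKK1, a secreted Wnt antagonist, was the largest difference of the list and ran the other way, 8.71 against 145. It was 16.7-fold higher, or 11.9-fold with the offset. CD44 was higher as given above. The count of lower targets was 3 when arrays were centred, and 5 without replicate 1 of either line or replicate 2 of the shRNA line.

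Notch genes, which set secretory against absorptive fate, were 4 higher and 8 lower of 20 (median -0.34). Ligand JAG2 gave 343, 294 and 329 against 80.9, 73.4 and 77.7, 4.16-fold lower, and the ligand DLL3 was 3.82-fold lower (43.9 and 11.5). HES6, a helix-loop-helix factor, gave 1093, 1083 and 924 against 275, 365 and 331, 3.2-fold lower. The feedback gene NRARP was 1.41-fold higher (639 and 903), and the receptor NOTCH2 gave 468 and 423 without passing. The 4 higher calls were 2 without replicate 1 or 3 of Ls174T-L8 or replicate 2 or 3 of the shRNA line, and also under the stricter filter, without a filter, with the mean of probe sets and without a variance trend. Without _x_at and _s_at probe sets the 8 lower were 5.

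BMP and TGF-β genes were 11 higher and 5 lower of 30 (median 0.11), and 7 were higher without replicate 2 of Ls174T-L8 or replicate 1 of the shRNA line. With the mean of probe sets 5 were higher and 2 lower, without _x_at and _s_at probe sets 7 and 2, and without a variance trend 7 were higher. TGFBR2, the ligand-binding receptor often mutated in colorectal carcinoma with mismatch repair loss, gave 61.2, 77.3 and 99 against 232, 254 and 253, 3.17-fold higher (adjusted p = 4.25e-07). The co-receptor TGFBR3 was 1.86-fold higher. LTBP1, which stores TGF-β in the matrix, gave 118, 118 and 117 in the shRNA line and 15.4, 18.8 and 17.2 in Ls174T-L8, 6.88-fold lower, and the divergent ligand GDF15 was 1.61-fold lower (1690.3 and 1053). SMAD1 and ID2 did not pass. In the Hedgehog list 1 gene was higher and 1 lower of 11, and these were the ligands themselves. The lower count was 2 without replicate 3 of the shRNA line and 3 with array weights. SHH gave 100.4, 131 and 108 in the shRNA line and 21.7, 19.7 and 3.9 in Ls174T-L8, 9.47-fold lower. IHH gave 8.7, 18.4 and 4.5 against 27.3, 38.5 and 33.7, 3.66-fold higher, or 2.82-fold with the offset. The receptor PTCH1 gave 259.9 and 216 and did not pass.

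Growth factor ligands and receptors of the ERBB, FGF and Eph families were 8 higher and 9 lower of 32 (median -0.04), with 5 higher without replicate 1 of Ls174T-L8 or with the mean of probe sets, and 5 lower under the stricter filter. The EGF receptor ligand EREG gave 127, 137 and 149 against 858, 598 and 853, 5.52-fold higher (adjusted p = 6.84e-10), and the ligand BTC was 2.82-fold higher. EFNB2, an ephrin, gave 171, 186 and 204 against 784, 766 and 749, 4.11-fold higher. FGF19, the gut hormone that restrains bile acid synthesis in liver, gave 128, 151 and 103 in the shRNA line and 17.9, 1.9 and 3.9 in Ls174T-L8 (-4.62 ± 0.62), and its receptor FGFR4 was 2.42-fold lower (253 and 105). The receptor ERBB2 gave 494 and 554 and did not pass (0.17 ± 0.10).

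Immediate early and feedback genes of the MAPK pathway were 12 higher and 8 lower of 30 (median 0.13), and 6 were higher without replicate 1 of Ls174T-L8 and 7 with the mean of probe sets. Of the AP-1 subunits 3 are given, with FOSL1 at 105, 88.3 and 119 against 296, 246 and 237 (2.5-fold), FOSL2 at 126 and 289 (2.29-fold) and FOS at 18.3 and 46 (2.52-fold). EGR1, another immediate early factor, was 2.28-fold lower, 113, 156 and 175 against 66.1, 68.5 and 57.5. The ERK phosphatase DUSP5 was 3.32-fold lower (lower calls were 4, not 8, without _x_at and _s_at probe sets), and the stress-response gene IER3 gave 1334 and 563. JUND gave 2860.4 and 2789 and did not pass.

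Genes of the p53 response and CDK inhibitors were 2 higher and 11 lower of 24 (median -0.39). DDB2, a DNA damage sensor, gave 329.5, 364 and 303 against 125, 163 and 116, 2.49-fold lower (adjusted p = 1.02e-05), TP53I3 was 2.42-fold lower (297 and 123), and PHLDA3, an inhibitor of AKT, 4.2-fold lower. CDKN2D, a CDK4 and CDK6 inhibitor, was 2.02-fold higher (22 and 44.3). Members of the Hippo and YAP list were 2 higher and 7 lower of 15 (median -0.46), among them CCN1 (1.92-fold lower) and AJUBA (1.55-fold lower, 1085 and 702). TEAD1 (1.85-fold) and WWTR1 (1.71-fold), the higher members, are factors of the pathway rather than its targets. The WWTR1 call was lost without a filter, with the mean of its probe sets and with some single arrays left out. The 2 higher were 1 without replicate 2 or 3 of Ls174T-L8 or replicate 2 of the shRNA line. Interferon-stimulated genes were 1 higher and 11 lower of 32, with a median of -0.09 that became 0.03 when arrays were centred. IFI27 gave 198, 179.8 and 164 against 48.3, 47.8 and 38.9, 4.02-fold lower, and IRF9, part of the interferon-activated complex, was 2.77-fold lower. OAS1 gave 373 and 372 and did not pass. The 1 higher gene became 0 without any single array of Ls174T-L8. The 11 lower genes were 7 under the stricter filter and 5 without _x_at and _s_at probe sets.

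Cytokine and NF-κB genes were 7 higher and 4 lower of 34 (median -0.11), with the higher ones including the decoy receptor IL1R2 (20.5 and 94.8) and the antagonist IL1RN (10.6 and 61.5), both of which limit IL-1 signalling. IL32 was 1.63-fold lower and RELA did not pass (566 and 571). The 7 higher were 4 under the stricter filter, and the 4 lower 2 without _x_at and _s_at probe sets. Antigen presentation genes were 5 higher and 6 lower of 21 (median -0.03). The stress ligand MICB gave 403, 317 and 206 against 757, 806 and 748, 2.59-fold higher, and the peptide transporter TAP1 was 1.43-fold lower. Without _x_at and _s_at probe sets 3 were higher and 2 lower.

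Cholesterol synthesis genes were mostly lower in Ls174T-L8. Of 16 tested genes 14 were lower and 0 higher, with a median of -0.64, against 20.5% lower over all genes. Several members are bright, and of the 620 brightest genes 41.8% were called lower. The part of that shift in the count was not tested. HMGCS1, which makes HMG-CoA at the head of the mevalonate pathway, gave 1099, 1218 and 850.4 in the shRNA line and 368, 533 and 438 in Ls174T-L8, 2.37-fold lower (adjusted p = 1.79e-05). LSS, which closes the sterol rings, gave 2456, 2495 and 1601 against 814, 1078 and 770.5, 2.44-fold lower. INSIG1, which holds the sterol sensor in the endoplasmic reticulum when sterols are plentiful, gave 2438, 2853 and 1809 against 924, 1147 and 907, 2.36-fold lower. In each of the 3 genes replicate 3 of the shRNA line was the lowest of its line and still above every Ls174T-L8 array. MSMO1 was 1.95-fold lower (2773 and 1419) and the factor SREBF2, which drives these genes, 1.46-fold lower. The isomerase IDI1 gave 1094 and 1073 and did not pass (-0.03 ± 0.11), nor did STARD4. Without replicate 3 of the shRNA line 14 genes were again lower, with a median of -0.81. When arrays were centred 11 were lower, without _x_at and _s_at probe sets 8, and none passed a test for more than 2-fold.

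Promoters of this list are shown because most of its members moved together. Of the 12386 tested genes 10088 had a RefSeq promoter entry (GRCh38.p14), and the 250 bases before each start were searched on both strands. The CCAAT box, spelled CCAAT, the site of the factor NF-Y that works beside sterol regulatory factors, was found in 14 of 15 list genes with an entry (93.3%) and in 41.7% of all promoters. The sterol regulatory element spelled TCACNCCAC was found in 1 of 15, that of SREBF2, and in 1.18% of all. The stretches below are 120 bases long and 5′ to 3′ on the strand of the gene, and were chosen after the values were seen, with the box or its reverse complement in capitals. HMGCS1 lies at chr5:43313413-43313532 on the minus strand, FDPS at chr1:155308746-155308865 on the plus strand, LSS at chr21:46228865-46228984 on the minus strand and INSIG1 at chr7:155297648-155297767 on the plus strand. FDPS makes farnesyl diphosphate and gave 4637, 4501 and 3053 in the shRNA line and 1949.5, 2160.5 and 2058 in Ls174T-L8.
HMGCS1: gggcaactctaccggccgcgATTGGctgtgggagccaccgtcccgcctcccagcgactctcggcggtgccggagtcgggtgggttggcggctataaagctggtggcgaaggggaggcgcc
FDPS: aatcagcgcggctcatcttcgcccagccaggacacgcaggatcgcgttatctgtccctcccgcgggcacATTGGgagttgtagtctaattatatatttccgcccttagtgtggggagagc
LSS: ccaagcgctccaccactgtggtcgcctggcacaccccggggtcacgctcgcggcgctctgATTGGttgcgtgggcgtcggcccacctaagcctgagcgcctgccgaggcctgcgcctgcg
INSIG1: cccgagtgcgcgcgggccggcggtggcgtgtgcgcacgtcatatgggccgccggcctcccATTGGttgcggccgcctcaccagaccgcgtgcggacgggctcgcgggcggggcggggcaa
The box began 100, 51, 150 and 170 bases before the start in these 4 promoters, and in each it read ATTGG on the strand of the gene. A match is a description of letters and does not show that a factor binds. Of the genes called lower as a whole 40.2% held the box, and of those called higher 40.7%. The 14 list genes with the box include IDI1 and STARD4, which were not called. Other lists held it in 68.2% (amino acid and ATF4), 54.8% (xenobiotic), 38.9% (fatty acid synthesis) and 33.3% (Wnt targets) of their promoters. The sterol element was in 2 of 22 promoters of the amino acid and ATF4 list.

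Genes of amino acid synthesis and of the ATF4 response, which cells switch on when amino acids run short or the endoplasmic reticulum is stressed, were 4 higher and 16 lower of 26 (median -0.60). Here too several members are bright, and the part of the shift among the 620 brightest genes (41.8% lower) was not tested. The factor ATF4 itself gave 3734, 4156 and 3596 in the shRNA line and 1906, 1974 and 1968 in Ls174T-L8, 1.96-fold lower (adjusted p = 4.63e-08). ASS1, which makes arginine's precursor, gave 4191, 4429 and 3694 against 1113, 998 and 949.7, 4.02-fold lower (adjusted p = 2.25e-11). TRIB3, a pseudokinase that feeds back on ATF4, gave 3829.9, 3787 and 2979 against 1039, 993 and 675, 3.96-fold lower. DDIT4, an inhibitor of mTORC1, was 4.8-fold lower (779 and 162), and the neutral amino acid carrier SLC1A4 3.57-fold lower. In every one of these the 3 arrays of the shRNA line lay above those of Ls174T-L8. The mitochondrial folate enzyme MTHFD2 gave 2231 and 1972 and did not pass. SLC7A11, the cystine carrier, was higher at 169 and 298, with its call lost without replicate 1 or 2 of the shRNA line, replicate 1 or 3 of Ls174T-L8, a variance trend, or with the mean of its probe sets. The count of 4 higher fell to 1 without replicate 1, 2 or 3 of Ls174T-L8 or replicate 1 or 2 of the shRNA line. That of 16 lower was 7 without _x_at and _s_at probe sets.

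The ATF4 binding element is shown for a pair of these genes, chosen after the values were seen. Its core, spelled TGATGNAA, was found in 4 of 22 list genes with an entry, ASNS, ATF3, CHAC1 and SLC1A5, and in 2.46% of all promoters. ASNS, asparagine synthetase, gave 2344, 2622 and 2322 in the shRNA line and 942, 1073 and 1010.3 in Ls174T-L8, 2.41-fold lower, and CHAC1, which degrades glutathione, gave 185, 177 and 174 against 86.1, 93.5 and 77.9. The ASNS stretch lies at chr7:97872409-97872528 on the minus strand and the CHAC1 stretch at chr15:40953221-40953340 on the plus strand, in GRCh38.p14, with the core or its reverse complement in capitals.
ASNS: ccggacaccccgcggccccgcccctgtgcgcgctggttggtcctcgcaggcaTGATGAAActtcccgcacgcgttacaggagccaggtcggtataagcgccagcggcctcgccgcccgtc
CHAC1: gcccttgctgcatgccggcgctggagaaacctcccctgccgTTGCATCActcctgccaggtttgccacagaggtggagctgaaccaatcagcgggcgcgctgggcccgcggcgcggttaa
The core began 68 bases before the start of ASNS and 209 before that of CHAC1. ATF3 also holds it and was called higher (0.58), but its call was lost without any single array other than replicate 3 of the shRNA line, and also without a filter, without a variance trend, without _x_at and _s_at probe sets, with the mean of its probe sets and with a replicate block.

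Subunits of the respiratory chain were 23 lower and 1 higher of 30, by small amounts (median -0.30). CYC1, cytochrome c1 of complex III, gave 4683, 4766 and 4119.7 in the shRNA line and 2212, 2270 and 2251 in Ls174T-L8, 2.01-fold lower (adjusted p = 6.98e-08). COX6C of cytochrome oxidase gave 4554, 4694 and 4425 against 2787, 2807 and 2679, 1.65-fold lower, and UQCRC2 3357 against 2055. NDUFA8 of complex I was the 1 higher, 1.39-fold (1068 and 1483). Most of these genes are among the 620 brightest genes of the array, of which 41.8% were called lower, and the part of that shift in the count was not tested. With quantile normalization 14 were lower, with centring 8, with the mean of all probe sets of a gene 13 and without _x_at and _s_at probe sets 15.

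In lipid metabolism beyond cholesterol more genes were lower than higher, as they were over all genes (20.5% lower, 16.9% higher). Of the 620 brightest genes 41.8% were called lower, and the part of that shift in these counts was not tested. Fatty acid synthesis and storage genes were 5 higher and 9 lower of 22 (median -0.30), with 3 higher without replicate 1 or 3 of Ls174T-L8 or replicate 3 of the shRNA line, and 2 higher and 5 lower without _x_at and _s_at probe sets. SCD, which makes monounsaturated fatty acids, gave 5722, 5784 and 5012 against 2319.8, 2762 and 2458, 2.19-fold lower (adjusted p = 1.52e-07), and FADS2, a desaturase of polyunsaturated fatty acids, was 2.79-fold lower (851 and 306). The carrier FABP5 was 1.54-fold higher. Fatty acid oxidation and ketogenesis genes were 3 higher and 10 lower of 23 (median -0.32), and 1 was higher without any single array of Ls174T-L8 or without replicate 2 of the shRNA line. ACADS, the short-chain dehydrogenase, gave 154, 167 and 156 against 55.1, 39.1 and 53.4, 3.27-fold lower, and ETFDH was 2.09-fold lower.

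Sugar metabolism was led by PGM1, already given. In the list of gluconeogenesis, fructose and glycogen 2 were higher and 6 lower of 13 (median -0.11), and 3 were lower when arrays were centred and 0 higher without _x_at and _s_at probe sets. Glycogen phosphorylase PYGL gave 245, 274 and 221 against 96.2, 104 and 107, 2.4-fold lower, and PCK2, the mitochondrial carboxykinase, 2.13-fold lower (772 and 362). The cytosolic form PCK1 was 1.69-fold higher. Glycolysis and hypoxia genes were 7 higher and 10 lower of 29 (median -0.07), with 5 lower when centred, and 4 higher and 4 lower without _x_at and _s_at probe sets. PKM gave 2815, 2807 and 2778 against 5062, 4780.3 and 4779.6, 1.74-fold higher, ALDOC was 3.48-fold lower (818 and 235), and VEGFA 1.94-fold lower. LDHA did not pass (-0.13 ± 0.07), and its sign turned with quantile normalization.

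Xenobiotic and detoxification genes were 17 higher and 6 lower of 41 (median 0.42). CYP1A1 and AKR1B10 led the higher ones. UGT1A6, a glucuronosyltransferase whose probe set may read other genes of its locus, gave 58.4, 50.4 and 67.6 against 614, 507 and 668, 10.2-fold higher, and CYP3A5 2.91 against 46.7. ABCB1, the drug efflux pump, stood on the other side with 486, 478 and 449 in the shRNA line and 33, 34.8 and 34.4 in Ls174T-L8, 13.8-fold lower (adjusted p = 2.47e-11), and so did CYP2B6 (3.41-fold lower) and UGT2B17 (7.5-fold lower). NQO1, a quinone reductase, gave 6104 and 5622 and did not pass. The 17 higher genes were 9 without _x_at and _s_at probe sets. The dioxin response core TNGCGTG was found in 3 of 31 list promoters and in 7.85% of all, and the antioxidant element TGACNNNGC in 9 of 31 (29%) and in 16.1%. Neither was particular to this list. The dioxin core was in 4 of 15 cholesterol list promoters (26.7%), and the antioxidant element in 5 of 18 of the fatty acid synthesis list (27.8%).

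Gut ion channels and transporters were 6 higher and 1 lower of 17 (median 0.35). CFTR, the chloride channel of crypt cells, gave 21.7, 14 and 5.2 against 203, 166 and 163, 15.2-fold higher (adjusted p = 3.37e-07), and the water and glycerol channel AQP3 24.2, 24 and 29.1 against 292, 276 and 314, 11.4-fold higher. The 1 lower became 0 without replicate 2 of the shRNA line. Metal-handling genes were 3 higher and 6 lower of 17 (median -0.11), with the zinc carrier SLC39A4 1.87-fold lower (1370.2 and 734) and the siderophore binder LCN2 4.44-fold lower; with quantile normalization 6 were higher.

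**Figure D4:**
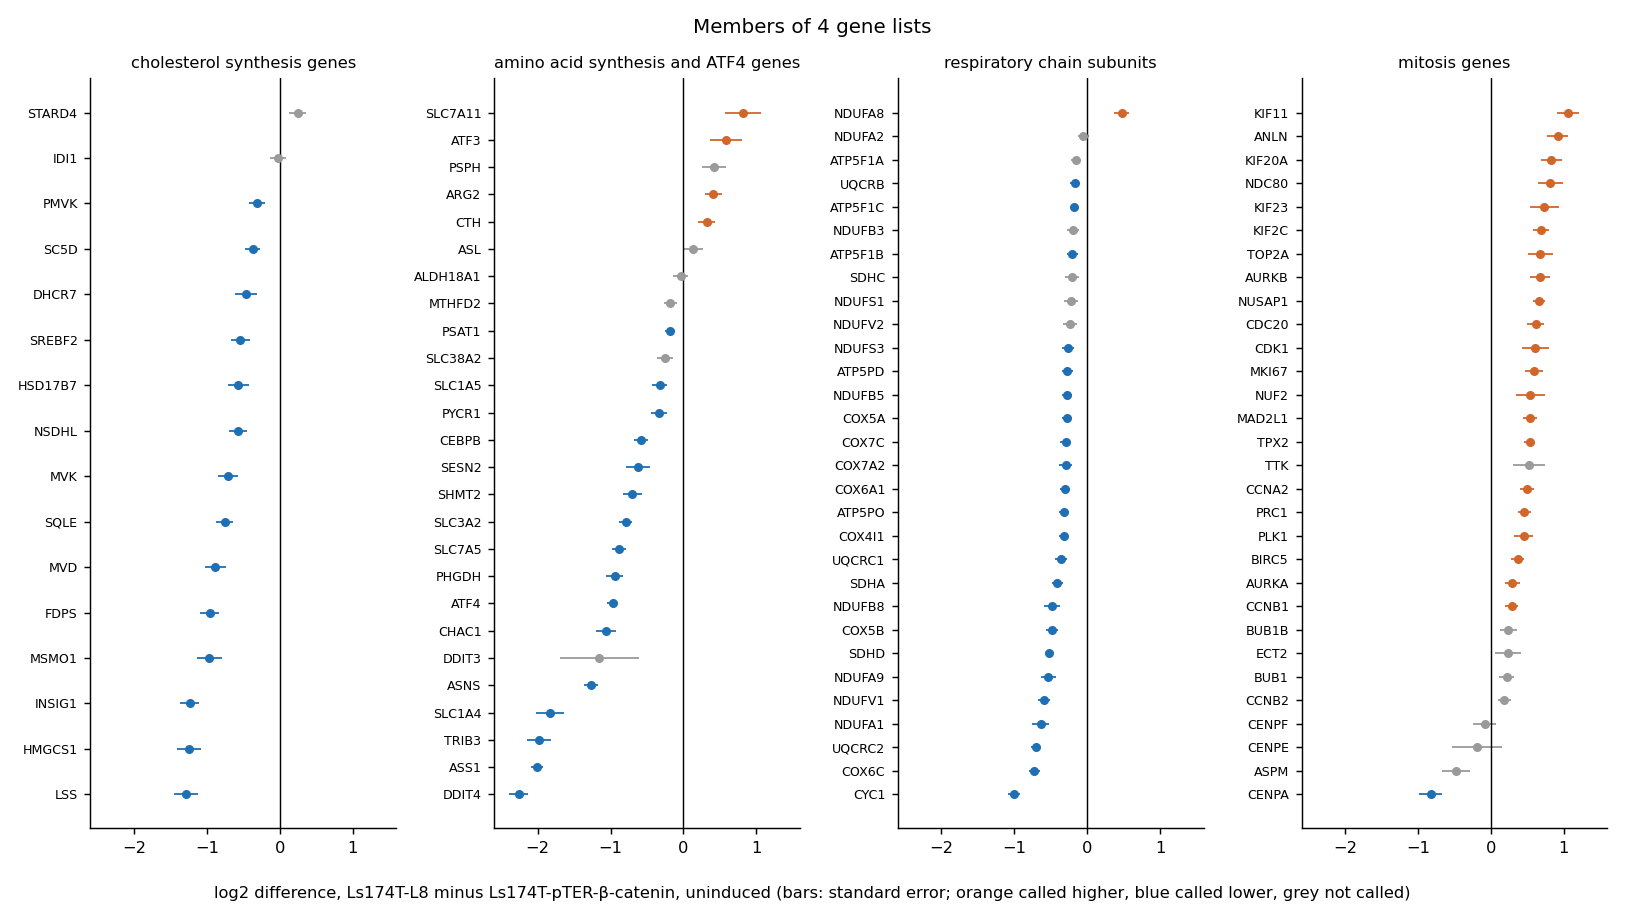
Difference of each tested member (log2, Ls174T-L8 minus the shRNA line) for 4 gene lists, with 1 point per gene, bars of 1 standard error, and colour for genes called higher or lower (grey where not called). The cholesterol members run from -1.29 to 0.25 with 14 of 16 called lower, and the respiratory chain members from -1.01 to 0.47.

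Adhesion and surface genes carried some of the larger differences. Cadherins and desmosomal genes were 6 higher and 4 lower of 19 (median 0.07). CDH17, the intestinal cadherin, gave 312, 150.4 and 284 in the shRNA line and 2234, 1954 and 2129 in Ls174T-L8, 8.87-fold higher (adjusted p = 2.25e-09), and the desmosomal DSC2 325, 345 and 330.4 against 1394, 1338 and 1276, 4.01-fold higher. CDH3, P-cadherin, went the other way with 494, 404 and 429 against 86.5, 80.2 and 68.1, 5.66-fold lower. Tight junction genes were 6 higher and 5 lower of 18 (median -0.21), CLDN2, the leaky claudin of crypts, being 2.93-fold higher (399 and 1168) and TJP3 2.26-fold lower. Of tight junction genes 3 were lower when arrays were centred and 3 higher with the mean of probe sets. Integrin, laminin and matrix genes were 9 higher and 8 lower of 32 (median 0.20), and 5 were lower when centred or without replicate 2 of Ls174T-L8. ITGA6 was 2.05-fold higher (1092 and 2243) and the basement membrane collagen COL18A1 5.32-fold lower.

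S100 proteins and annexins were 10 higher and 5 lower of 18 (median 0.42). ANXA1 gave 95.6, 113 and 63.5 against 1538, 1311 and 1259, 15.5-fold higher (adjusted p = 1.20e-10). S100A10, which pairs with annexin A2, gave 533, 597 and 438 against 3180.1, 3459 and 3259, and S100A11 was 4.68-fold higher. S100A14 was 2.19-fold lower. The 5 lower were 2 without _x_at and _s_at probe sets. Surface markers were 10 higher and 10 lower of 37 (median -0.06), with the complement regulator CD55 at 163 and 718 and the ectonucleotidase NT5E at 195 and 46.2, and 6 were higher with the mean of probe sets. Extracellular proteases and inhibitors were 12 higher and 13 lower of 41 (median -0.12). KLK6 gave 49, 45.7 and 37.7 against 407, 419 and 419, 9.46-fold higher, the collagenase MMP1 was 11.2-fold higher (7.28-fold with the offset), and TIMP3, an inhibitor of such enzymes, 45.6, 40.3 and 36.2 against 2.9, 1 and 1.3, 26-fold lower against values at or near the floor of 1 and 8.86-fold with the offset of 3.5.

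Genes of cell division were mostly higher in Ls174T-L8 by less than 2-fold. Mitosis genes were 21 higher and 1 lower of 30 (median 0.53), against 16.9% higher over all genes. The spindle motor KIF11 gave 222, 192 and 209 in the shRNA line and 435, 415 and 441 in Ls174T-L8, 2.07-fold higher (adjusted p = 4.25e-05), and the cytokinesis protein ANLN 215, 238 and 278 against 509.8, 413 and 456. CENPA, the centromere histone, was the 1 lower, 1.78-fold. DNA replication and G1/S genes were 20 higher and 2 lower of 39 (median 0.35). CCNE2, a cyclin of S phase entry, gave 36.3, 50.9 and 61.6 against 145, 168 and 143, 3.13-fold higher, and CDC6, which loads the replicative helicase, was 2.68-fold higher. PCNA gave 3061 and 3047 and did not pass (-0.01 ± 0.07). The 2 lower replication genes were 0 when arrays were centred or without replicate 2 of Ls174T-L8, and 1 without a variance trend or without replicate 1 or 2 of the shRNA line. The 1 lower mitosis gene became 2 without replicate 1 of the shRNA line. No member of either list passed a test for more than 2-fold.

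Other growth lists are given by their counts, beside 16.9% higher and 20.5% lower over all genes. Ribosome biogenesis genes were 9 higher and 1 lower of 25 (median 0.15), nucleotide and polyamine synthesis genes 7 and 2 of 24 (median 0.12), apoptosis regulators 7 and 2 of 29 (median 0.03), and DNA repair genes 7 and 3 of 24 (median 0.10). The repair gene NBN gave 117, 123 and 184 against 395, 391 and 396, 2.84-fold higher (adjusted p = 2.23e-06), and ERCC1 445 and 201, 2.21-fold lower. The 2 lower nucleotide genes were 4 without replicate 3 of the shRNA line, and the 7 higher apoptosis genes 4 with the mean of probe sets. The 2 lower apoptosis genes were 1 without any single array of Ls174T-L8 or replicate 2 of the shRNA line. Lower repair genes were 1 when arrays were centred, and higher ones 4 without _x_at and _s_at probe sets. CTPS1, which makes CTP, was 1.77-fold higher. Chromatin genes were 6 higher and 3 lower of 28 (median 0.13), with HDAC2 1.53-fold higher (920.1 and 1408) and DNMT1, the maintenance methyltransferase, 1.49-fold lower (1043 and 699). Reference genes were not flat either, with 3 higher and 4 lower of 10 (median -0.01). GUSB was 1.59-fold higher, a call lost with the mean of its probe sets, while the lower calls of GAPDH (-0.22), ACTB (-0.18) and PPIA (-0.22) turned sign with quantile normalization. Their calls were lost as well without a filter, without a variance trend, when arrays were centred and without replicate 2 of Ls174T-L8. The ACTB and PPIA calls were also lost with the mean of their probe sets, the ACTB call without each other array, and the GAPDH call without replicate 1 or 2 of the shRNA line. Lower reference genes were then 1 or 2 without replicate 2 of Ls174T-L8 or replicate 1 or 2 of the shRNA line, and 0 when arrays were centred.

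Called genes were next placed in the order of the reference gene table, for 12376 of the genes tested. Of 12350 neighbouring pairs 1090 (8.83%) were both called in the same direction, beside 7.04% as the product of the shares of calls, and 751 (6.08%) in opposite directions, beside 6.91%. There were 28 runs of at least 5 neighbours called the same way. The longest held 13 genes, all lower (PTGR3, TSHZ1, ZNF516, ZNF236, MBP, ATP9B, NFATC1, CTDP1, SLC66A2, HSBP1L1, TXNL4A, RBFA and ADNP2, median -0.85). The next held 9 lower genes (ARHGAP19, FRAT1, FRAT2, RRP12, PGAM1, EXOSC1, ZDHHC16, MMS19 and UBTD1, median -0.92), and the third 8 higher genes (GALNT7, HMGB2, SAP30, FBXO8, CEP44, HPGD, SPCS3 and NEIL3, median 1.30). The second run holds both FRAT genes, which encode inhibitors of the kinase that marks β-catenin for degradation.

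The longest run lay on the chromosome that carries GATA6, SMAD4, BCL2 and CYB5A. Of its 171 tested genes 76 were higher (44.4%) and 33 lower (19.3%), and the next highest share of higher genes among 23 chromosomes with at least 100 tested genes was 34.3%. Split after the values were seen, the 44 tested genes from USP14 to ROCK1 held 8 higher and 10 lower (median -0.004). The 104 from GREB1L to SOCS6 held 68 higher (65.4%) and 4 lower (median 0.63). The 23 from LINC02582 to PARD6G held 0 higher and 19 lower (82.6%, median -0.85). SOCS6, an inhibitor of cytokine receptor signalling, gave 108, 122 and 149 in the shRNA line and 556, 595 and 666 in Ls174T-L8, 4.82-fold higher, and the next tested gene, LINC02582, gave 17.2, 24.6 and 43.3 against 4, 10.1 and 1.8, 6.32-fold lower (adjusted p = 0.0152). CYB5A, with the largest difference of all, lies in the last stretch. Between the induced arrays, which share no sample with these, the middle stretch held 65 higher and 13 lower (median 0.54) and the last 0 higher and 18 lower (median -0.87). No copy number was measured.

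**Figure D5:**
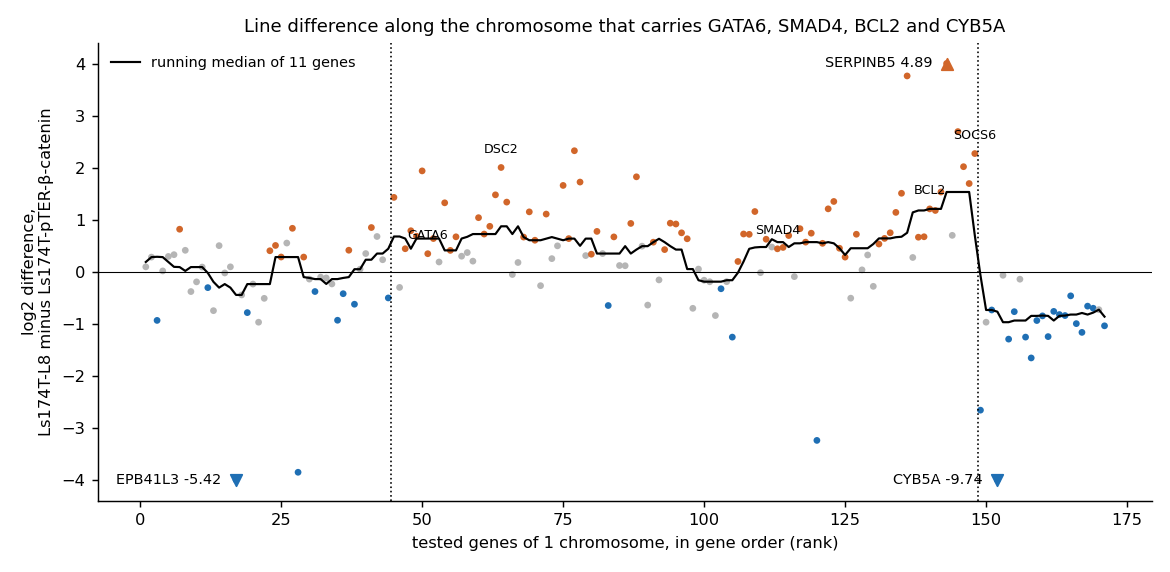
Difference of each tested gene (log2, Ls174T-L8 minus the shRNA line) in gene order along the chromosome that carries GATA6, SMAD4, BCL2 and CYB5A, with 1 point per gene, called genes coloured, a running median over 11 genes, dotted lines at the 2 splits, and triangles for values beyond the axis. Genes from GREB1L to SOCS6 lie mostly above 0 (median 0.63), and of the 23 that follow 19 are called lower (median -0.85).

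The same lines were also compared after doxycycline, on 6 other arrays, where they differ in agent and in time of induction as well. There 5940 genes were called (48%), 21.1% of all genes higher and 26.9% lower. Of the 4625 genes called between uninduced arrays, 3187 (68.9%) were called in the same direction, 152 in the opposite direction and 1286 were not called. Of the 429 that differed at least 4-fold, 352 were called in the same direction and 5 in the opposite one. All but 1 of the 30 leading genes were called in the same direction, the exception being IL33 (uninduced 4.80 ± 0.40, induced 0.34 ± 0.40, adjusted p = 0.509). The cholesterol list was then 1 higher and 9 lower of 16 (median -0.37) and the ATF4 list 3 higher and 9 lower of 26 (median -0.19). Mitosis genes were 29 higher and 0 lower of 30 (median 1.41) and replication genes 35 higher and 1 lower of 39 (median 0.95). The Paneth list was 5 higher and 4 lower of 10 (median 0.36). Directions did not carry over for every list. Interferon-stimulated genes were 15 higher and 9 lower of 32 (median 0.41), against 1 higher and 11 lower between uninduced arrays. The p53 list was 8 higher and 7 lower of 24 (median -0.03), against 2 and 11. Absorptive markers were 4 higher and 6 lower of 13 (median -0.65), against 5 and 2. The difference between lines itself differed between induced and uninduced arrays for 2185 genes (17.6%).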

How the data were processed

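RNA of 12 Ls174T samples was measured on 12 Affymetrix U133 Plus 2.0 arrays, and the 6 uninduced ones are compared here. The deposited table holds 1 intensity (signal) per probe set on a linear scale; per the submitters' processing notes MAS5 and GCOS were used. Versions and a genome build were not given in the sources used here. The mean of the middle 96% of signals was 99.98 on each uninduced array. Signals below 1 were raised to 1 before log2 of the deposited values. Of 54675 probe sets, 62 controls were left out, 41097 had 1 gene symbol, 1801 several and 11777 none; 54 Entrez numbers were missing from the gene table. The brightest probe set stood for each of 19775 genes, and 12386 with a mean log2 signal of at least 3.355 (signal 10.23) were tested; 7389 were not.

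limma 3.58.1 in R 4.3.3 was fitted over all 12 arrays as 4 group means (8 residual and 8.054 prior degrees of freedom), with a variance trend, two-sided, Benjamini-Hochberg adjustment and a threshold of 0.05. Named genes are all probe sets of CTNNB1 and TCF7L2, the 15 largest differences each way without overlap, up to 4 called members each way and 2 brightest uncalled members per list, and members of the longest runs; the text gives part of these, and ATF4, ASNS, CHAC1, FDPS, SREBF2, SOCS6, LINC02582 and markers were added after values were seen. Members and lists were chosen with earlier results of these data known. On simulated data the method recovered 71% of 100 genes changed 2-fold and 90% of 100 changed 4-fold, with 5 false among 166 calls over 12386 genes. The simulated noise was independent and normal, with no array effect or shift by brightness, and no other genes were changed. In the data 37.3% of genes were called, so these figures are not error rates of the calls given here. Promoters were read from RefSeq tables (GRCh38.p14) with Python 3.11.15 and pandas 2.3.3; figures used matplotlib 3.10.9. Alternatives changed the scaling, offset, filter, choice of probe sets, spread, weights, arrays in the fit, a replicate block and the threshold, and left out each uninduced array.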

Additional observations from a re-analysis of the deposited data

Results flagged for a closer look

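Among the 30 genes with the largest differences, 12 had a line difference that was not the same between induced and uninduced arrays, by limma's test of the difference of differences (adjusted p over all genes; 2185 of 12386 genes, 17.6%, passed it). Values are the induced minus the uninduced difference in log2, with SE. The difference moved further towards Ls174T-L8 for CA2 (2.32 ± 0.67, adjusted p = 0.0249), TM4SF1 (2.57 ± 0.30, 2.7e-05) and REG1A (1.61 ± 0.15, 2.5e-06). It shrank for SERPINB5 (-1.54 ± 0.17, 1.05e-05), IL33 (-4.45 ± 0.56, 5.04e-05), AKR1B10 (-3.06 ± 0.26, 9.67e-07) and PLAC8 (-1.49 ± 0.19, 5.43e-05). For genes lower in Ls174T-L8, the gap narrowed for PIGR (1.31 ± 0.19, adjusted p = 0.000219), NES (2.44 ± 0.68, 0.0202), MUC5B (2.09 ± 0.64, 0.0318) and SLC3A1 (1.76 ± 0.34, 0.00205), and widened for PGM1 (-0.79 ± 0.23, 0.0253). The lines differ in agent and in time of induction, so construct, time and line cannot be told apart in these values.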

How the results depend on the processing

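The count of 4625 called genes lay between 3775 and 4429 with 1 uninduced array left out (higher 1628 to 2032, lower 2082 to 2397). It was 4535 with quantile normalization, 4094 with each array centred, 4714 with an offset, 4321 without a filter, 3681 with a stricter one, 3319 without probe sets ending in _x_at or _s_at, 4256 without a variance trend, 5545 with array weights and 4869 over the uninduced arrays only. With the replicate block it was 4578 (2058 higher, 2520 lower); deviations of same-numbered arrays correlated at 0.0196, 0.0118 and 0.0477, so the numbers were not taken to pair the lines, and the block moved no count of 2 or more by over 1.5 times (the 1 lower keratin became 0). Counts moved most with every probe set by itself, with centring (1668 lower) and with the test for more than 2-fold. Every probe set by itself gave 7131 called (3482 higher, 3649 lower), 9555 between induced arrays and 4791 called the same way on both. The 2-fold test left 438 (168 higher, 270 lower), 767 between induced arrays, 280 the same way and 81 changed differences. The called TCF7L2 probe set (0.76) lay under 2-fold and could not pass it. The mean of all probe sets of a gene gave 3144 called genes and 1277 changed differences. Directions that turned: with quantile normalization ACTB (0.11), ATP5F1A (0.12), FTL (0.21), GAPDH (0.045), LDHA (0.14) and PPIA (0.047); without _x_at and _s_at CDCA7 (-0.23), ELF3 (1.05), KDM5A (0.19), PPAT (-0.50) and TAGLN (-1.27); with the mean of probe sets ANKRD37 (-0.34), ELF3 (0.73), HLA-F (-0.019), ITGB4 (-0.010), KMT2A (0.24) and PPIA (0.23). Of 52 list medians 22 changed sign in some setting, most of them near 0; among them were interferon (centred 0.026), tuft (no filter 0.65, mean of probe sets 0.70), claudins (stricter filter 0.033, mean 0.16), mesenchymal (mean 0.76, and -1.01 to 0.26 over the arrays left out, positive without Ls174T-L8 replicate 2), cancer-testis (without _x_at and _s_at -0.85, without shRNA line replicate 1 -0.10, without Ls174T-L8 replicate 3 -0.13) and Hedgehog (-0.30 to 0.012 over the arrays left out, positive without Ls174T-L8 replicate 3). Of 429 named genes 144 changed a call or direction in some setting besides the 2-fold test, 15 of them in direction, and 285 did not; the cause was not tested. Of 2499 called genes with another probe set above the filter, 1159 had one called the same way and 59 one called the opposite way. Genes near the filter, at a signal of about 10.23, have the largest errors, and fold changes at the floor of 1 depend on the offset.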
